A study of Mus musculus with 6 samples.

Results

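The p53 axis described here is a set of 10 mouse genes: Trp53, which encodes the transcription factor p53, its regulators Mdm2 and Mdm4, and the p53 target genes Ccng1, Gadd45a, Aen, Phlda3, Trp53inp1, Zmat3 and Sesn1. The genes were chosen by name, and each was read through its probe set with a single gene symbol in the platform annotation, the one with the highest mean over all arrays. This found 9 of the 10 genes, out of 19937 named genes in all, and Trp53 itself is not analysed here. The values come from 6 Affymetrix arrays of A316, a mouse line of primary adenocarcinoma cells that lacks Cebpa, which encodes the transcription factor C/EBP alpha, in both groups (knock out). On 3 arrays the cells had received PTC-209, a compound that the labels describe as inhibiting Bmi, dissolved in 0.5% DMSO, and on 3 arrays they had received 0.5% DMSO alone. All arrays are of 1 line, and no source used here gives the dose of PTC-209 or the time of exposure. Whether separate cultures stand behind the 3 arrays of a group is not stated, so p-values here measure only the spread between these arrays, which may be technical.

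The transcription factor p53 is held at a low level in unstressed cells by MDM2, a ubiquitin ligase that marks it for degradation, and by the related MDM4, which blocks its activity. DNA damage and other stresses release p53, which then raises a set of genes that stop the cell cycle, repair DNA, slow growth signalling or start cell death. Mdm2 is itself a p53 target, which closes a feedback loop. BMI1, a Polycomb subunit, is known as a repressor of the Cdkn2a locus, whose product p19ARF inhibits MDM2. Several genes called p53 targets are also raised without p53, by the stress factors ATF4 and CHOP or by FoxO factors, and Gadd45a is the best known of these.

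In p53-bound promoters and enhancers the factor recognises pairs of a short decamer. Promoter windows of the members are shown because they let the letters near the start of each gene be set beside its response. RefSeq promoter windows of the build GRCm38.p6, each reaching from 250 bases before a transcript start to 50 bases after it, matched 8 of the 10 genes with 11 windows. Trp53inp1 and Zmat3 had no entry. Printed 5′ to 3′ on the strand of the gene, 4 windows follow, 3 of genes that were higher with PTC-209 and 1, Ccng1, of a gene that did not pass the test. Capitals mark the matches to the consensus decamer of p53.
Gadd45a, chr6:67037358-67037657, minus strand: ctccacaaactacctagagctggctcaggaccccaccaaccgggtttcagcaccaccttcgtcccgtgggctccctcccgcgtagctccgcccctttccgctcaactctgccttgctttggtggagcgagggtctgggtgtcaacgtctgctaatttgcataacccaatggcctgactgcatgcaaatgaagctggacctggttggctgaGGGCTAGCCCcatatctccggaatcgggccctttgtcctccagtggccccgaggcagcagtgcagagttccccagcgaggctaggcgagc
Mdm2, chr10:117710709-117711008, minus strand: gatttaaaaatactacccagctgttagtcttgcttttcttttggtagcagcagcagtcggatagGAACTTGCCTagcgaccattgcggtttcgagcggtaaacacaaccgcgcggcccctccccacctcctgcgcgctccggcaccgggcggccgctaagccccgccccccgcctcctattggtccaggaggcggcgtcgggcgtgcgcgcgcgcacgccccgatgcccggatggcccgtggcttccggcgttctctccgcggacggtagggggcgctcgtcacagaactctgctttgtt
Aen, chr7:78895677-78895976, plus strand: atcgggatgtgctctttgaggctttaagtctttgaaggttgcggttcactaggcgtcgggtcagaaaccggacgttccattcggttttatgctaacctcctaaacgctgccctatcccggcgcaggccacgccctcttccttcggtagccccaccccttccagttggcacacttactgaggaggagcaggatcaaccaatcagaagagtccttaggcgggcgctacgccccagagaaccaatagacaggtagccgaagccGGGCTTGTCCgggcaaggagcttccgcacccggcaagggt
Ccng1, chr11:40755237-40755536, minus strand: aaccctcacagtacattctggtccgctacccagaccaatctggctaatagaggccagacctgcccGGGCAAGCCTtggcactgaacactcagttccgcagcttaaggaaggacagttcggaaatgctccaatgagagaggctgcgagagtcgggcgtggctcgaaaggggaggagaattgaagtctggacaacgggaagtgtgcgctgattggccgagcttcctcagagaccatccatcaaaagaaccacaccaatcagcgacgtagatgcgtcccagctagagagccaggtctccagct

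A match to the decamer, searched on both strands, stood in 7 of the 11 windows, which belong to Gadd45a, Mdm2, Aen, Ccng1, Sesn1 and Trp53. Of all 32851 RefSeq promoter windows of the same length, 8.36% held one. The Gadd45a match reads GGGCTAGCCC, at -40 to -31 from the start, and the Mdm2 match reads GAACTTGCCT, at -186 to -177. Aen has 2 overlapping windows that share the same match, GGGCTTGTCC. Ccng1 carries GGGCAAGCCT at -185 to -176, and 1 of the 2 windows of Sesn1 carries AAGCTTGTTT. The decamer therefore stood in windows of genes that rose and of genes that did not pass the test, and Phlda3 and Mdm4 had none. No member window held a pair of decamers within 13 bases of each other, which 0.0731% of all windows did, nor the ATF4 element TGATGNAA, searched on both strands and present in 3.97% of all windows. In the Gadd45a window the octamer ATTTGCAT, which POU factors bind, matched once on each strand, at -97 to -90 and at -70 to -63, and 1.74% of all windows held it. The FoxO element GTAAACA, searched on both strands and held by 3.65% of all windows, stood in the Mdm2 window and in 1 window of Sesn1. These matches are letters in a window, not measured binding. Sequence outside the windows, introns and enhancers included, was not searched, and only exact matches were counted. A window without a match therefore does not mean a gene without a site. All 10 motifs searched were picked with the responses known, and the octamer after the sequence had been seen.

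Cells given PTC-209 had more mRNA of 6 of the 9 measured members than cells given DMSO, and of these Gadd45a rose 10.7-fold, Trp53inp1 2.86-fold and Zmat3 2.29-fold. Aen rose 1.90-fold, Mdm4 1.54-fold and Mdm2 1.47-fold. Ccng1, Phlda3 and Sesn1 did not pass the test. A gene was called when its limma p-value, adjusted by Benjamini and Hochberg over 28192 probe sets, was under 0.05. By that rule 66.7% of the measured members were higher, where 12.9% of all named genes were higher and 26.6% were called in either direction. The members were chosen with earlier results of these data known, so this share is not independent evidence of their direction. The count of lower members was 0 by limma, and also 0 at an unadjusted p under 0.05. All 3 PTC-209 arrays lay above all 3 DMSO arrays for the same 6 members, and the groups overlapped for the other 3. Such separation was seen for 40.5% of all named genes, 21.1% with the PTC-209 arrays above and 19.4% with them below. The median log2 difference was 0.62 over the 9 members and 0.026 over all named genes. All 9 members read above the median brightness of the tested probe sets (4.33) in both groups. The shares and the median of all named genes were not matched for brightness. Of the 9 measured members, 3 were called higher and rose at least 2-fold, where 2.23% of all named genes did so. The arrays read the total RNA of a culture, so more cells that express a gene and more RNA per cell cannot be told apart.

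**Figure D1:**
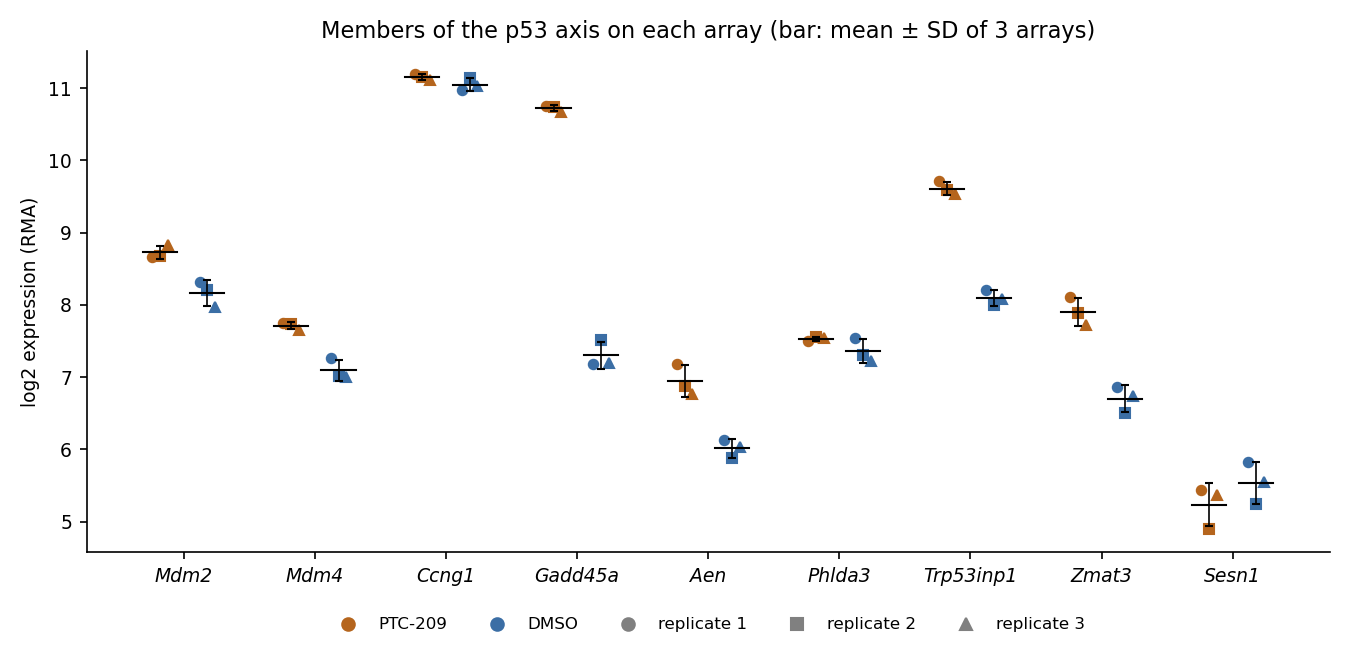
Log2 expression (RMA) of the 9 measured members on each array, PTC-209 left of DMSO, with marker shape for the replicate number and bars for the mean ± SD of 3 arrays. The PTC-209 arrays lie above the DMSO arrays for Mdm2, Mdm4, Gadd45a, Aen, Trp53inp1 and Zmat3, and the groups overlap for Ccng1, Phlda3 and Sesn1; heights of different genes come from different probe sets and are not comparable.

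Both regulators of p53 were higher with PTC-209. Mdm2 (probe set 10372668) read 8.67, 8.68 and 8.83 on the log2 scale on the PTC-209 arrays and 8.32, 8.20 and 7.97 on the DMSO arrays. The lowest PTC-209 array stood above the highest DMSO array by a margin close to the spread within DMSO. The log2 difference was 0.56 (SE 0.115, 95% confidence interval 0.30 to 0.82, limma adjusted p = 0.00577). That call ended when a fold change above 1.2 was required, a rule that left 5 members and 6.37% of all named genes higher (limma adjusted p = 0.103, and 0.00131 to 0.103 over the alternatives). Mdm4 (probe set 10357773) read 7.75, 7.73 and 7.66 on the PTC-209 arrays and 7.26, 7.01 and 7.01 on the DMSO arrays. The treated arrays lay close together and clear of every control array. Its log2 difference was 0.62 (SE 0.103, 95% confidence interval 0.39 to 0.85, limma adjusted p = 0.00176). Within an array, the log2 value of Mdm2 exceeded that of Mdm4 by 1.01 ± 0.14 with PTC-209 and by 1.07 ± 0.12 with DMSO (SD, n = 3 each; exact two-sided permutation p = 0.5). The 2 genes thus differed in their response by -0.06, which is smaller than the spread between arrays.

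Gadd45a encodes a small nuclear protein that binds PCNA and stress kinases and takes part in growth arrest and repair. Its probe set (10545130) read 10.76, 10.74 and 10.67 on the PTC-209 arrays and 7.19, 7.52 and 7.20 on the DMSO arrays. The gap between the groups was many times the spread within either. The level was 10.7-fold higher (95% confidence interval 8.98 to 12.8, log2 difference 3.42, SE 0.113, limma adjusted p = 2.51e-07), rank 5 by log2 rise among the 19937 named genes. Ccng1, which encodes cyclin G1, a partner of a phosphatase that acts on MDM2, is one of the classical p53 targets. It read 11.20, 11.15 and 11.12 on the PTC-209 arrays and 10.97, 11.14 and 11.03 on the DMSO arrays (probe set 10385271). The groups overlapped, with the second DMSO array above the third PTC-209 array. The log2 difference was 0.11 (95% confidence interval -0.11 to 0.32, limma adjusted p = 0.511), so the interval leaves out a rise as large as that of any of the 6 called members.

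Among members tied to cell death, Trp53inp1 and Aen were higher and Phlda3 was not called. Trp53inp1, whose product assists p53 in the death response and takes part in autophagy, read 9.71, 9.59 and 9.53 with PTC-209 and 8.21, 7.99 and 8.08 with DMSO (probe set 10503259). The arrays of the groups were far apart (log2 difference 1.52, SE 0.101, limma adjusted p = 5.68e-06). Aen, a nuclease that takes part in apoptosis, read 7.19, 6.87 and 6.77 with PTC-209 and 6.13, 5.88 and 6.04 with DMSO (probe set 10554233). The treated arrays were all higher, though the first of them stood apart from the other 2 (log2 difference 0.93, SE 0.129, limma adjusted p = 0.000567). Phlda3, which competes with the kinase AKT for membrane lipids, read 7.50, 7.55 and 7.54 with PTC-209 and 7.55, 7.31 and 7.23 with DMSO (probe set 10350146). The first DMSO array reached the level of the treated arrays. The log2 difference was 0.17 (95% confidence interval -0.07 to 0.41, limma adjusted p = 0.33).

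Zmat3, a zinc finger protein that binds RNA and acts in splicing, read 8.10, 7.88 and 7.71 with PTC-209 and 6.86, 6.50 and 6.74 with DMSO (probe set 10497673). No array of one group reached the other (log2 difference 1.2, SE 0.133, limma adjusted p = 0.000140). Sesn1, a sestrin that restrains the growth kinase complex mTORC1, had the widest spread of the members. It read 5.44, 4.89 and 5.37 with PTC-209 and 5.82, 5.24 and 5.55 with DMSO (probe set 10362811). The second array of each group was the lowest, and the groups overlapped. The log2 difference was -0.30 (SE 0.18, 95% confidence interval -0.71 to 0.10, limma adjusted p = 0.298), and it was not called under any of 16 alternative settings (limma adjusted p from 0.0599 to 1). The calls of Gadd45a, Trp53inp1, Zmat3, Aen and Mdm4 held under all 16.

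The members belong to small families, and their paralogs responded differently from them in several cases. Of 15 measured paralogs 6 rose and 3 fell, which is 40% and 20%, where 12.9% of all named genes rose and 13.7% fell. The other GADD45 genes rose as well: Gadd45b averaged 9.08 ± 0.05 with PTC-209 and 7.40 ± 0.37 with DMSO, and Gadd45g averaged 7.52 ± 0.12 with PTC-209 and 5.99 ± 0.22 with DMSO (SD, n = 3 each). These are rises of 3.19-fold and 2.90-fold (limma adjusted p = 6.63e-05 and 2.40e-05). Gadd45a gained more than either, with a difference between the log2 responses of 1.75 against Gadd45b and 1.89 against Gadd45g. In the sestrin family Sesn2 rose 1.95-fold (6.10 ± 0.19 with PTC-209, 5.13 ± 0.23 with DMSO) and Sesn3 fell 2.78-fold (5.04 ± 0.10 with PTC-209, 6.52 ± 0.29 with DMSO), while Sesn1 lay between them. Its log2 response was 1.26 below that of Sesn2 and 1.17 above that of Sesn3. Ccng2, the cyclin G paralog that FoxO factors are known to raise, was 2.40-fold higher, at 8.41 ± 0.07 with PTC-209 and 7.15 ± 0.18 with DMSO (limma adjusted p = 3.38e-05), and the response of Ccng1 was 1.16 lower on the log2 scale.

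The remaining families gave a mixed picture. Trp53inp2, an autophagy protein, rose 1.32-fold, and Trp53inp1 responded by 1.12 more on the log2 scale. Phlda1 and Phlda2 did not pass the test (log2 differences 0.27 and 0.32), and the response of Phlda3 differed from that of Phlda1 by -0.10 (exact two-sided permutation p = 0.6, adjusted p = 0.6). Isg20, an interferon-induced exonuclease of the same family as Aen and the gene next to it in the RefSeq gene table, fell 1.63-fold (6.41 ± 0.04 with PTC-209, 7.11 ± 0.18 with DMSO), while Isg20l2 rose 1.43-fold. Zmat2 fell 1.44-fold, and Zmat1 and Zmat4 read low in both groups with log2 differences of -0.07 and 0.03. Trp63 and Trp73, the relatives of Trp53, also read low, with log2 differences of 0.13 and 0.06. Taken singly, 40.5% of all named genes had no overlap between the groups, and no such share was computed over pairs of genes. Of the 8 pairs compared within arrays, 6 had no overlap between the groups. For each of these the exact two-sided permutation p was 0.1, the smallest that 3 arrays against 3 allow, and 0.133 after adjustment over the pairs, so this permutation test cannot pass the threshold with 3 arrays a group, and no other test of these differences was run. The calls of Trp53inp2, Isg20l2 and Zmat2 were lost under some settings that left out 1 array: Trp53inp2 without any array other than DMSO replicate 1, Isg20l2 without PTC-209 replicate 2 or DMSO replicate 2, and Zmat2 without PTC-209 replicate 2 or 3.

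**Figure D2:**
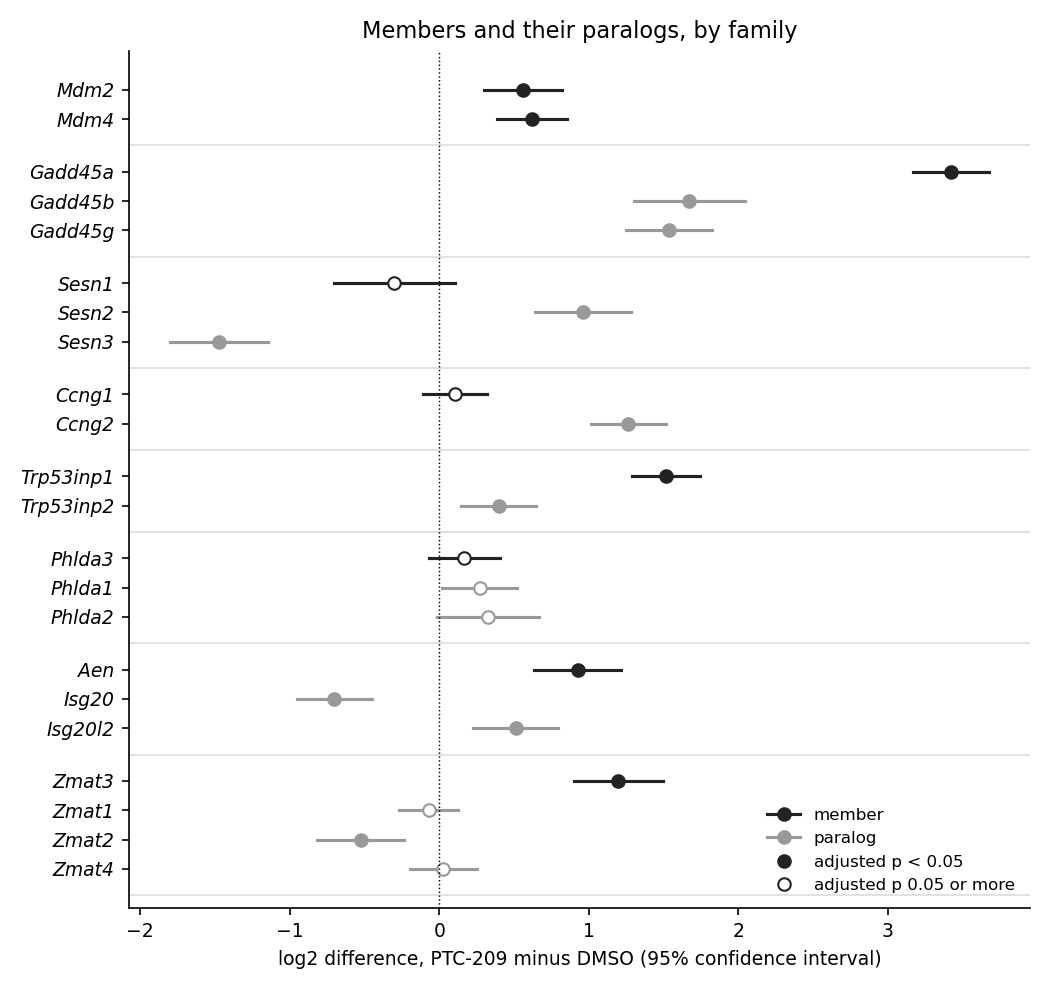
Log2 difference of PTC-209 minus DMSO with its 95% confidence interval for the members (dark) and their paralogs (grey), grouped by family; filled points passed limma's adjusted threshold of 0.05. Gadd45a lies to the right of Gadd45b and Gadd45g, Sesn2 and Sesn3 lie on opposite sides of zero, and Aen and its neighbour Isg20 do as well.

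**Figure D3:**
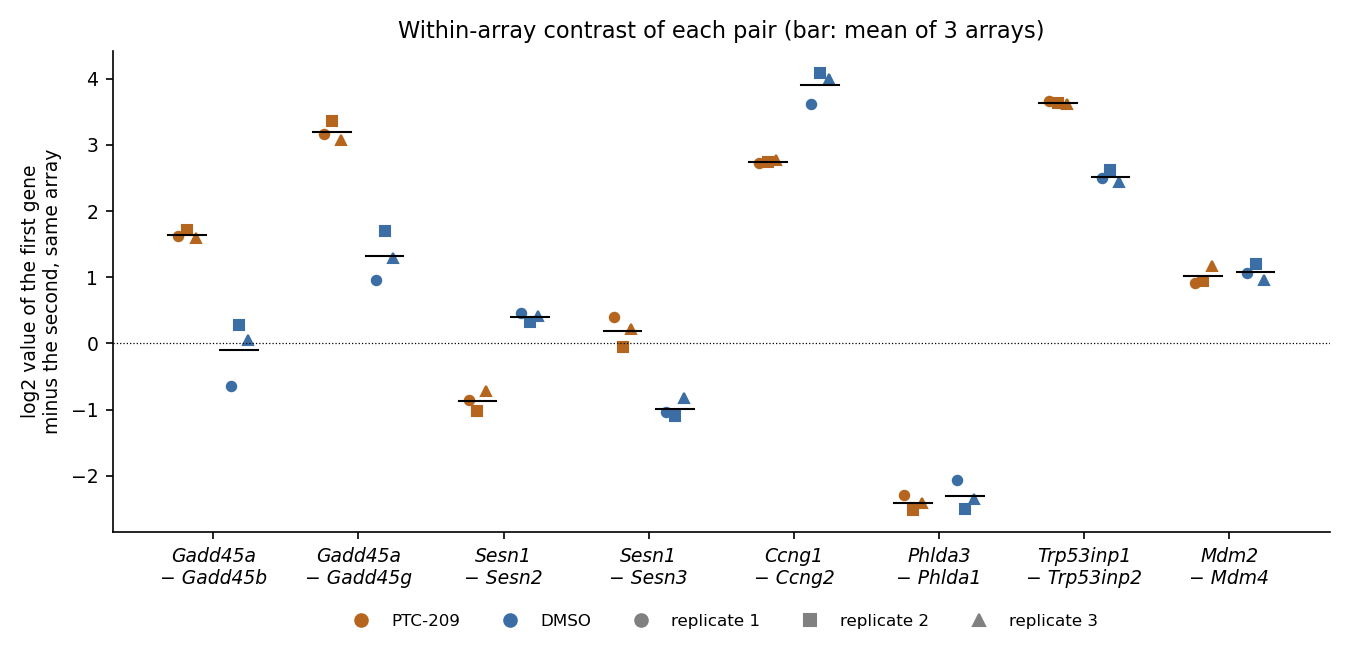
Log2 value of a member minus that of its paralog (last pair: Mdm2 minus Mdm4) on the same array, PTC-209 left of DMSO, with bars for the mean of 3 arrays. Only the shift between the groups can be read, since the 2 genes come from different probe sets. The groups do not overlap in 6 of the 8 pairs and overlap for Phlda3 with Phlda1 and for Mdm2 with Mdm4.

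Among genes that act on p53, changes ran in both directions. Of 23 measured regulators 7 fell, 2 rose and 14 did not pass the test, with a median log2 difference of -0.11. As shares, 30.4% fell and 8.70% rose, where 13.7% of all named genes fell and 12.9% rose. At an unadjusted p under 0.05 the counts were 8 lower and 7 higher, and with a fold above 1.2 required 4 fell and 0 rose, so the balance of the directions is not settled. Chek1, a kinase that phosphorylates p53 after replication stress, fell 8.41-fold, to 4.57 ± 0.14 with PTC-209 against 7.64 ± 0.12 with DMSO (limma adjusted p = 2.61e-07). The damage kinase gene Chek2 fell 2.54-fold (4.86 ± 0.12 with PTC-209, 6.21 ± 0.15 with DMSO). Trp53bp1, a damage adaptor that binds p53, fell 1.75-fold, and Usp7, which removes ubiquitin from p53 and MDM2, fell 1.69-fold. The 2 that rose were Ep300 and Crebbp, acetyltransferases that serve as p53 coactivators (log2 differences 0.64 and 0.57). Cdkn2a, the locus of p19ARF, read 4.94 ± 0.16 with PTC-209 and 5.32 ± 0.07 with DMSO (limma adjusted p = 0.0278). That call was lost without PTC-209 replicate 1 or 2 or DMSO replicate 1 or 3, and also when the control block was kept or a fold above 1.2 was required. Bmi1, the gene of the compound's stated target, fell 1.45-fold, at 7.01 ± 0.07 with PTC-209 and 7.55 ± 0.14 with DMSO (limma adjusted p = 0.00424), a call lost when a fold above 1.2 was required. The count of regulators that rose was 4 without DMSO replicate 1 and 6 after quantile normalization was applied again. For Cop1, another ubiquitin ligase of p53, the 2 probe sets differed in call: the brighter had a log2 difference of 0.28 and the other, which passed the threshold, 0.46. Rpl5, a ribosomal protein that binds MDM2, likewise had a brightest probe set that was not called and 2 dimmer ones that were called higher (limma adjusted p = 0.00956 and 0.00591). The dimmest probe set of Rpl5, at 2.98 with PTC-209 and 2.82 with DMSO, was not called.

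Other genes known as p53 targets moved in both directions. The 5 lists were written from general knowledge, with earlier results of these data known. Of their 65 genes 57 had a probe set, and 17 rose, 15 fell and 25 did not pass the test. Their median log2 difference was -0.07. As shares, 29.8% rose and 26.3% fell, where 12.9% of all named genes rose and 13.7% fell. The lists were not split into genes that p53 raises and genes that it represses, such as Cdc25c. The balance of rises and falls therefore does not read the activity of p53. Cdkn1a, the gene of the CDK inhibitor p21 and the best known p53 target, shares its probe set with another gene symbol and is not analysed here, nor is Bax, a classical death target. With a fold change above 1.2 required, 11 rose and 7 fell, while cyclic loess gave 17 rises and 19 falls.

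Among 9 targets tied to cell cycle arrest 2 rose (22.2%) and 3 fell (33.3%), where 12.9% of all named genes rose and 13.7% fell. Plk3, a stress-responsive polo-like kinase, was 2.19-fold higher (6.59 ± 0.12 with PTC-209, 5.46 ± 0.19 with DMSO). Cdc25c, the phosphatase that starts mitosis and a gene that p53 is known to repress, was 5.59-fold lower (5.02 ± 0.34 with PTC-209, 7.51 ± 0.15 with DMSO). Gtse1, a microtubule protein that restrains p53, was 1.92-fold lower and the adenylate kinase Ak1 1.65-fold lower. Of 15 cell death targets 4 rose and 2 fell. The death receptor Eda2r was 2.25-fold higher, at 7.57 ± 0.15 with PTC-209 and 6.40 ± 0.03 with DMSO (limma adjusted p = 3.64e-05), and the decoy receptor Tnfrsf23 1.43-fold higher. Siva1, an adaptor of death receptors, was 1.61-fold lower, and Perp, a desmosomal protein, 1.41-fold lower. The rises in that list numbered 2 without DMSO replicate 2. Pmaip1 and Fas, both classical death targets, read 3.72 and 3.73 with PTC-209 and 3.79 and 4.12 with DMSO, under the median brightness of 4.33 in both groups, and did not pass the test. Bbc3, of the same list, was called higher, close to the threshold. It read 4.84 with PTC-209 and 4.42 with DMSO (log2 difference 0.42, limma adjusted p = 0.0416).

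Of 8 targets in DNA repair and nucleotide supply 2 rose (25%) and 3 fell (37.5%), where 12.9% of all named genes rose and 13.7% fell. Rrm2b, the p53-inducible subunit of ribonucleotide reductase, was 2.18-fold higher (7.11 ± 0.09 with PTC-209, 5.99 ± 0.18 with DMSO), and Xpc, which recognises damaged bases, was 1.75-fold higher. The polymerase Polh was 1.55-fold lower, the sliding clamp Pcna 1.44-fold lower, and Ddb2, a damage sensor chosen after its values were seen, 1.37-fold lower. The Ddb2 call was lost without PTC-209 replicate 1 or 2 or DMSO replicate 2 or 3. Of 15 targets in metabolism and autophagy 8 rose (53.3%) and 4 fell (26.7%). Sesn2, Prkab2, a subunit of the energy sensor AMPK (1.93-fold), and Ddit4, an inhibitor of mTORC1 (1.82-fold), rose, and Ercc5 fell 1.77-fold. Ercc5 encodes a DNA repair nuclease, although it stands in this list. Of 10 secreted or signalling targets 1 rose (10%) and 3 fell (30%). The receptor kinase Epha2 was 1.53-fold higher, the chemokine Cx3cl1 1.99-fold lower, and Notch1 and Thbs1 had log2 differences of -0.46 and -0.46. Notch1 lost its call without PTC-209 replicate 1 or 3 or DMSO replicate 1, and Thbs1 without PTC-209 replicate 2 or 3 or DMSO replicate 1 or 3. The falls in that list numbered 1 without PTC-209 replicate 3 or DMSO replicate 1 and 5 after cyclic loess.

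Gadd45a stands in the list of ATF4 and CHOP genes as well, and Gadd45a, Trp53inp1 and Sesn1 stand in the list of FoxO genes. Of 17 measured ATF4 and CHOP genes 16 rose (94.1%) and 0 fell by limma (0 also at an unadjusted p under 0.05). Of all named genes 12.9% rose and 13.7% fell. The ATF4 and CHOP list had a median log2 difference of 1.63. That list was written with the strong rise of these genes already known, so its count is not independent evidence of their direction. The exception was Pmaip1. The largest called rises of the list were those of the cystine importer Slc7a11 (4.53 on the log2 scale), Gadd45a (3.42), the glutathione-degrading enzyme Chac1 (3.24) and the lipoprotein receptor Vldlr (3.20). Ddit3, the gene of CHOP, rose by 2.25 and Atf4 by 1.21. Of the 4 other p53 targets in the ATF4 list, Sesn2, Ddit4 and Tnfrsf10b rose (log2 differences 0.96, 0.86 and 0.40) and Pmaip1 did not pass. Tnfrsf10b lost its call without PTC-209 replicate 1 or DMSO replicate 2. Of 16 FoxO genes 10 rose (62.5%) and 1, Sesn3, fell (6.25%), where 12.9% of all named genes rose and 13.7% fell. The median of the FoxO list was 0.62. The rises numbered 6 when a fold above 1.2 was required. Cdkn1b, counted among the 10 that rose, had a dimmer probe set that was called lower (log2 difference -0.41, limma adjusted p = 0.0137). The FoxO list was also chosen with earlier results of these data known, so its count is not independent evidence of their direction. Txnip, which binds thioredoxin, rose by 1.43 and Foxo3 by 0.94. The 3 genes outside the members whose values followed Gadd45a most closely over the 6 arrays were Crebrf, Srprb and Slc26a11, with Pearson r of 0.9995, 0.9993 and 0.9992. With 2 groups this far apart, such an r mainly restates the difference between the groups.

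**Figure D4:**
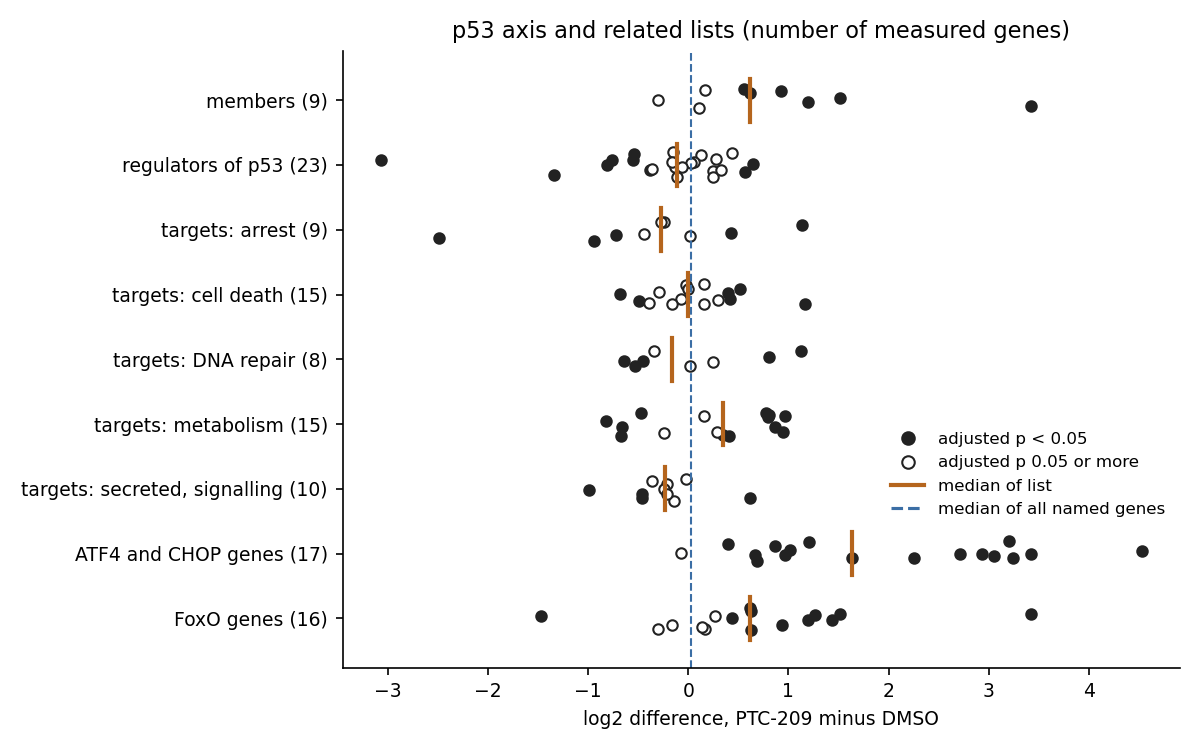
Log2 difference of PTC-209 minus DMSO for each measured gene of the members and of 8 related lists, with filled points past limma's adjusted threshold of 0.05, an orange line at each list's median and a dashed line at the median of all named genes, 0.026. The members' median is 0.62 and that of the ATF4 and CHOP genes 1.63, while the 5 lists of other p53 targets lie between -0.27 and 0.34; vertical scatter within a list carries no value.

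The medians of the arrays over all 34760 probe sets lay between 4.07 and 4.14, which the normalization largely sets. Across probe sets, arrays of the same group correlated at 0.992 to 0.996, arrays of different groups at 0.970 to 0.974. Of 13 markers of lung and epithelial tumour cells, 7 with PTC-209 and 8 with DMSO read above the median brightness, with Krt8 at 10.58 with PTC-209 and 11.41 with DMSO and Cdh1 at 10.25 with PTC-209 and 9.90 with DMSO. The lung markers Nkx2-1, Sftpb, Sftpc, Sftpd and Scgb1a1 read under it in both groups. Of the 13 markers, 5 fell (Krt7, Krt8, Krt18, Krt19 and Muc1, the last by 4.33 on the log2 scale) and 2 rose (Cdh1 and Cldn4), and their part in the results was not tested. Of 8 fibroblast markers 4 read above the median brightness in both groups, the highest at 5.02 with PTC-209 and 4.975 with DMSO. Of 7 leukocyte markers 2 and of 6 endothelial markers 1 did so as well. Among the 8 fibroblast markers 0 were called by limma, and 1, Pdgfra, had an unadjusted p under 0.05. Of 7 leukocyte markers Cd14 fell and of 6 endothelial markers Cdh5 fell, which read 8.15 with PTC-209 and 9.48 with DMSO. Cebpa read 3.79 ± 0.12 with PTC-209 and 3.65 ± 0.16 with DMSO, below the median brightness, and no source used here places its probe set inside or outside the deletion, so it does not check the knock out.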

How the data were processed

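Affymetrix arrays were run on biotinylated cRNA from total RNA of 6 samples of A316 cells, per the labels' protocols. The deposited table holds the authors' log2 values, made with RMA per the submitters' processing notes, which give no version. That they are on a log2 scale was judged from their range. Because RMA makes the arrays' distributions alike, a change common to most genes is hidden. Groups and replicate numbers came from the titles; the free-text description, which speaks of embryos, was not used.

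A leading block of 6568 control probe sets was left out, leaving 28192, of which 21640 have 1 gene symbol, 1321 several and 5231 none listed. Symbols were checked through Entrez identifiers against the RefSeq gene table. Each of 19937 genes was represented by its brightest probe set, chosen on the mean of all 6 arrays. Differences, PTC-209 minus DMSO, were tested with limma 3.58.1 in R 4.3.3 (lmFit, eBayes), with Benjamini-Hochberg adjustment over all 28192 probe sets and a threshold of 0.05. Pairs of genes were compared with exact permutation tests over arrays. Precision is limited by 3 arrays per group. The fit was tested on simulated data. Figures were drawn with matplotlib 3.10.9.

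Members and lists were chosen with earlier results of these data known. Named were all members, their paralogs, up to 4 genes of every other list past the threshold without overlap and not dim, and the 3 genes most like Gadd45a. Genes outside the rule were named after their values were seen: Ep300, Crebbp, Cop1, Rpl5, Cdkn2a, Ddb2, Pmaip1, Fas, Bbc3, Tnfrsf10b, Ddit3, Atf4, Foxo3, Cdkn1b and the markers.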

Additional observations from a re-analysis of the deposited data

How the results depend on the processing

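Alternatives changed the fit (a robust, trended prior; array weights; the replicate block; a required fold change above 1.2), the scaling (cyclic loess; a second quantile normalization; median centring) or the probe sets used (without dim ones; with control ones; averaged per gene), or left out each array in turn. The number of members that rose was 6 under every one of them except the required fold change, where it was 5 because Mdm2 was lost, and 0 members fell under any. Leaving out each array in turn gave 13 to 17 rises and 12 to 15 falls among the other p53 targets, where the required fold change gave 11 and 7. Falls outnumbered rises, by 18 to 17 with the robust, trended prior, by 15 to 13 without DMSO replicate 2 and by 19 to 17 without dim probe sets or after cyclic loess. The required fold change also left 0 rises and 4 falls among the regulators and 6 rises among the FoxO genes. The difference between the responses of Trp53inp1 and Trp53inp2 was 1.03 after quantile normalization again, against 1.12 as reported; leaving out each array gave 1.08 to 1.17. Leaving out each array gave -0.14 to 0.0012 for Mdm2 against Mdm4 and -0.20 to 0.017 for Phlda3 against Phlda1, so the sign of these small differences is not settled. The labels do not say that replicate numbers mark a shared batch, so the numbers were not taken as pairs. Deviations of same-numbered arrays correlated at 0.231, 0.0703 and 0.0733, and those of differently numbered arrays at -0.163 to 0.105. The highest value was that of the 2 arrays numbered 1, and whether the numbers mark a batch was not tested. With the replicate block 6 members rose. Trp63, Trp73, Pmaip1 and Fas read under the median brightness in both groups. The cause of these changes was not tested.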
